A study of Mus musculus with 206 samples.

Results

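The protocadherins are cell adhesion proteins of the cadherin superfamily, and 69 of the 21951 protein-coding genes of the mouse annotation (GENCODE M21, mm10) carry a symbol that starts with Pcdh. They were chosen by that symbol alone and not by any measured value. Of the 69 genes, 57 stand in tandem clusters, with 14 alpha (Pcdha), 22 beta (Pcdhb) and 21 gamma (Pcdhg) genes, and 12 are scattered non-clustered genes such as Pcdh9. The study mapped H3K27ac, a histone mark of active promoters and enhancers, in sorted NeuN+ neuronal nuclei of wild type C57BL/6NTac mice of both sexes. Consensus regions of the mark were counted as protocadherin regions where they lay in one of these gene bodies, or where the nearest gene 5′ end within 100 kb was that of a protocadherin. This gave 35 of 18272 consensus regions in prefrontal cortex (PFC), 33 of 16201 in hippocampus, 36 of 13788 in hypothalamus and 141 of 60013 in striatum.

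Mice had been exposed to saline (SAL) or morphine (MOR) before birth, through a minipump in the dam that delivered 10 mg/kg a day, and again as pups at 10 mg/kg on postnatal days 1 to 14, followed by spontaneous withdrawal. As adults they received saline or bacterial lipopolysaccharide (LPS), and tissue was taken 2 h later, so group names give the perinatal and then the adult treatment: SAL-SAL and SAL-LPS after perinatal saline, MOR-SAL and MOR-LPS after perinatal morphine. Pups of every group were raised by surrogate dams that had received no drug. In all, 174 peak lists from 72 animals were labelled, and 172 entered the comparisons, with 42 from PFC, 44 from hippocampus, 41 from hypothalamus and 45 from striatum. A PFC SAL-SAL list of 4371 peaks was left out, and 2 identical SAL-LPS lists of the hippocampus were counted as 1 sample. The remaining lists held 10811 to 143527 peaks. PFC libraries were made with another kit than those of the other brain regions, so kit and brain region cannot be told apart. Promoters of 10 neuron markers were marked at a mean of 32.2% to 44.3% by brain region and those of 7 microglia markers in no library. Those of 10 oligodendrocyte markers were marked at a mean of 4.32% to 14.0%, but at up to 90.0% in single libraries of PFC and striatum. The PFC SAL-SAL and striatum SAL-SAL libraries of animal 9-4 each had 90.0% of these and 10.0% of the neuron markers marked. Such libraries were kept in the promoter counts and comparisons, and what cell types they held was not tested. No neuron marker promoter was among the 10000 strongest peaks of 4 libraries, PFC MOR-SAL of animal 13-1, hypothalamus MOR-LPS of animal 16-4, hypothalamus SAL-LPS of animal 11-0 and striatum SAL-LPS of animal 1-4. The first of these also had 44.4% of astrocyte and 40.0% of endothelium markers marked. Markers of the brain regions went partly against the labels: among the striatum markers Drd1 was marked in 69.0% of the libraries labelled PFC and 31.1% of those labelled striatum, Rgs9 in 59.5% and 26.7%, Ppp1r1b in 38.1% and 40.0%, Drd2 in 4.76% and 0%, and Adora2a in none of either, and 6 prefrontal cortex markers were marked at a mean of 15.1% in PFC, 22.7% in hippocampus and 0.37% in striatum. Every value given for PFC is that of the libraries so labelled, and what tissue they held was not tested.

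In the 3 clusters, each variable exon has its own promoter and is spliced to constant exons shared by the cluster (the beta genes have no constant exon), and a neuron is known to use only a few of these promoters, which gives it a surface identity used in dendrite self-avoidance. The choice is known to depend on CTCF, cohesin and DNA methylation at the promoter and on distant enhancers. The last genes of the alpha and gamma clusters, called C-type, are less subject to this choice. The non-clustered (mostly delta) protocadherins are known for homophilic adhesion and act in axon growth and synapse formation, with each gene in its own pattern of brain areas.

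The promoters and the region on which the results turn are shown here as reference sequence, since the named genes differ in how rich their promoters are in CpG dinucleotides, which are printed in capitals. Sequences are from GRCm38.p6 (the assembly behind mm10). Promoters run from 250 bases before to 50 after the gene's 5′ end, on the gene's strand. They are those of Pcdh9 (chr14:93890630-93890929), Pcdh17 (chr14:84443313-84443612), Pcdh10 (chr3:45378148-45378447), Pcdh20 (chr14:88471347-88471646) and Pcdh18 (chr3:49757276-49757575). The last sequence is the 300 bases on the plus strand around the median peak summit of the Pcdh9 intron region that differed between treatment groups in hypothalamus (chr14:93813120-93813419).
Pcdh9 promoter: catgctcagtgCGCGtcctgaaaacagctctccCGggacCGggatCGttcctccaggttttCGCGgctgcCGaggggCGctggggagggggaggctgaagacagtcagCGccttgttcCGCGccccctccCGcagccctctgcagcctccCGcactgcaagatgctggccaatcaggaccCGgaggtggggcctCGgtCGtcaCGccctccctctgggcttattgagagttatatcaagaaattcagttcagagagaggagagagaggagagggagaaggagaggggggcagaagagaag
Pcdh17 promoter: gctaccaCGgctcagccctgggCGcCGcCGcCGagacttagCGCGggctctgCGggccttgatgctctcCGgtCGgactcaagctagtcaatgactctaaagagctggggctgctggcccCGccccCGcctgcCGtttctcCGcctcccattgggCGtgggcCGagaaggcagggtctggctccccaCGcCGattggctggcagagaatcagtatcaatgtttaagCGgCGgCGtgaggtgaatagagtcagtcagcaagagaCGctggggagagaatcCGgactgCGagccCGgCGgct
Pcdh10 promoter: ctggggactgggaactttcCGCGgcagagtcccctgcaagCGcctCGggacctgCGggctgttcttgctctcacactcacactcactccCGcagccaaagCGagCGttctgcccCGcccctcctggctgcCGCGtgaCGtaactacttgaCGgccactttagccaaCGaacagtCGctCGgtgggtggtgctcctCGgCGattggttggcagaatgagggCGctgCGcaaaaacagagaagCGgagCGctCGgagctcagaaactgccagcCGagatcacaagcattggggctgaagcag
Pcdh20 promoter: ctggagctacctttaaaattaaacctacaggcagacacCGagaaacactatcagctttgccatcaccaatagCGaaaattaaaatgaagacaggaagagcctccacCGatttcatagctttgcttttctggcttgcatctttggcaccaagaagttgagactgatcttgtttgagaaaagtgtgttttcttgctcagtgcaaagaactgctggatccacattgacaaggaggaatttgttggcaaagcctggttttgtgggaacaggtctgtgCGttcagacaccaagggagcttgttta
Pcdh18 promoter: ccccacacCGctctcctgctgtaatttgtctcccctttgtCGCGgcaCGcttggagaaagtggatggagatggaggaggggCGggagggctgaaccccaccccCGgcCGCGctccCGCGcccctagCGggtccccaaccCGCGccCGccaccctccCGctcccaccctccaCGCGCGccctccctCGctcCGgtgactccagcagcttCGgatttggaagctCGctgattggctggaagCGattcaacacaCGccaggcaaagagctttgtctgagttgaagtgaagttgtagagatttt
Pcdh9 intron region: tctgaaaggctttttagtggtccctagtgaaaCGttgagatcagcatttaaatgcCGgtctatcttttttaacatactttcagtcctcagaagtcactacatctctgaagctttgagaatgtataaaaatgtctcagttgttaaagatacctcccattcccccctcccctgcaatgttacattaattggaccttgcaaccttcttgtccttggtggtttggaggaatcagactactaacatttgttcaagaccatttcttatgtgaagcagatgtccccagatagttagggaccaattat

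The Pcdh17 promoter held 26 CpG in 300 bases, Pcdh10 and Pcdh18 held 24 each and Pcdh9 held 18, while Pcdh20 held 4 and the Pcdh9 intron region 2. Over all 12 non-clustered genes the median was 18.5 CpG at a GC content of 63.2%, against 11 CpG and 55.0% over 21931 protein-coding promoters. The clustered promoters were poorer in both. The median was 7.5 CpG in the alpha, 5 in the beta and 7 in the gamma cluster, at 38.7%, 39.5% and 42.0% GC, and the 5 C-type promoters held a median of 12 CpG at 54.7% GC. The letters CGCT, a short element known from clustered protocadherin promoters, were searched on both strands of the same 300 bases and were found in all 14 alpha, 21 of 22 beta and 20 of 21 gamma promoters, and in 10 of 12 non-clustered promoters. These letters were also in 67.1% of all 21931 promoters.

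Promoters of the clustered genes were nearly free of strong H3K27ac peaks, and those of several non-clustered genes were marked in most libraries. A promoter was counted as marked where a peak lay within 1 kb of the gene's 5′ end. To hold list length equal, the 10000 peaks of highest −log10 p were taken from each library. In PFC a library marked 1.19 ± 0.71 (SD, n = 42) of the 57 clustered promoters and 3.07 ± 1.20 of the 12 non-clustered promoters. The numbers were 0.73 ± 0.69 and 1.98 ± 0.90 in hippocampus (n = 44), 0.88 ± 0.90 and 2.49 ± 1.12 in hypothalamus (n = 41), and 0.73 ± 0.75 and 2.24 ± 1.23 in striatum (n = 45). As a share of the genes this was 1.28% to 2.09% for clustered and 16.5% to 25.6% for non-clustered genes by brain region, beside 8.26% to 14.7% for all protein-coding genes. These counts are descriptions over libraries, with no test.

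Within the clusters, marked promoters were almost all C-type. Of the 52 other clustered genes, 50 were marked in no PFC library, 52 in no hippocampal, 50 in no hypothalamic and 51 in no striatal library among the 10000 strongest peaks. No beta promoter was marked in any library on that list. Pcdhgc5, the last gene of the gamma cluster, was marked in 88.1% of PFC, 56.8% of hippocampal, 24.4% of hypothalamic and 44.4% of striatal libraries. Pcdhac2, the last of the alpha cluster, was marked in 16.7%, 11.4%, 34.1% and 17.8%, and Pcdhgc4 in 4.76%, 2.27%, 24.4% and 6.67% in the same order. Pcdhgc3 was marked in 2.38% of PFC libraries only, and Pcdhac1 in 2.27% of hippocampal and 2.22% of striatal libraries. Pcdhga11 reached 4.76% in PFC, whereas Pcdha12 and Pcdhga3 were each marked in 0.58% of all 172 libraries, as was Pcdhga7.

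With the full peak lists the same genes led. Pcdhgc5 then had a peak in 84.4% to 95.2% of libraries by brain region, Pcdhac2 in 68.3% to 90.5% and Pcdhgc4 in 46.7% to 73.8%. The variable promoters other than C-type reached 4.12 ± 3.78 of 52 per library in PFC but only 0.32 ± 0.67 in hippocampus, 0.68 ± 1.21 in hypothalamus and 0.60 ± 0.78 in striatum. In PFC the most often marked of them were Pcdhga12 with 40.5% of libraries, Pcdha4 with 33.3% and Pcdhga6 with 31.0%. Pcdhb14, at 26.2% of PFC libraries, led the beta genes. Several clustered promoters, such as Pcdha1, Pcdha2, Pcdhb2 and Pcdhb3, had no peak in any of the 172 libraries, and Pcdhb1 had one in 1.16% of them.

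Among the non-clustered genes, Pcdh17, which is known from cortex to basal ganglia circuits, and Pcdh9 had the highest share of strong promoter peaks over all libraries pooled, with 60.5% each, although in hippocampus Pcdh1 was above both. Pcdh17 was marked among the 10000 strongest peaks in 81.0% of PFC, 31.8% of hippocampal, 73.2% of hypothalamic and 57.8% of striatal libraries, and Pcdh9 in 81.0%, 38.6%, 58.5% and 64.4%. Pcdh1, an adhesion protein also of epithelia, followed with 69.0%, 63.6%, 36.6% and 51.1%. Pcdh10, a synaptic protein linked to autism, was marked in 57.1% of PFC but 2.27% of hippocampal libraries, with 19.5% in hypothalamus and 28.9% in striatum. Pcdh20 had the opposite order between those brain regions, with 36.4% in hippocampus and 2.38% in PFC. Pcdh8, known as the activity-induced arcadlin, reached 18.2% in hippocampus and at most 4.44% elsewhere. Pcdh7 reached 29.3% in hypothalamus, 14.3% in PFC, 11.1% in striatum and 2.27% in hippocampus. Pcdh18 was marked in 9.76% of hypothalamic libraries and in none of the others, and Pcdh15, a tip link protein of hair cells, in 4.88% of hypothalamic libraries. Pcdh19, an epilepsy gene on the X chromosome, was marked in 4.55% of hippocampal libraries. Pcdh11x, also on the X chromosome, and Pcdh12, known from endothelium, were marked in none, and a peak was present in the full lists in 18.0% and 3.49% of all libraries. The plot of promoter occupancy sets these shares beside each other.

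**Figure D1:**
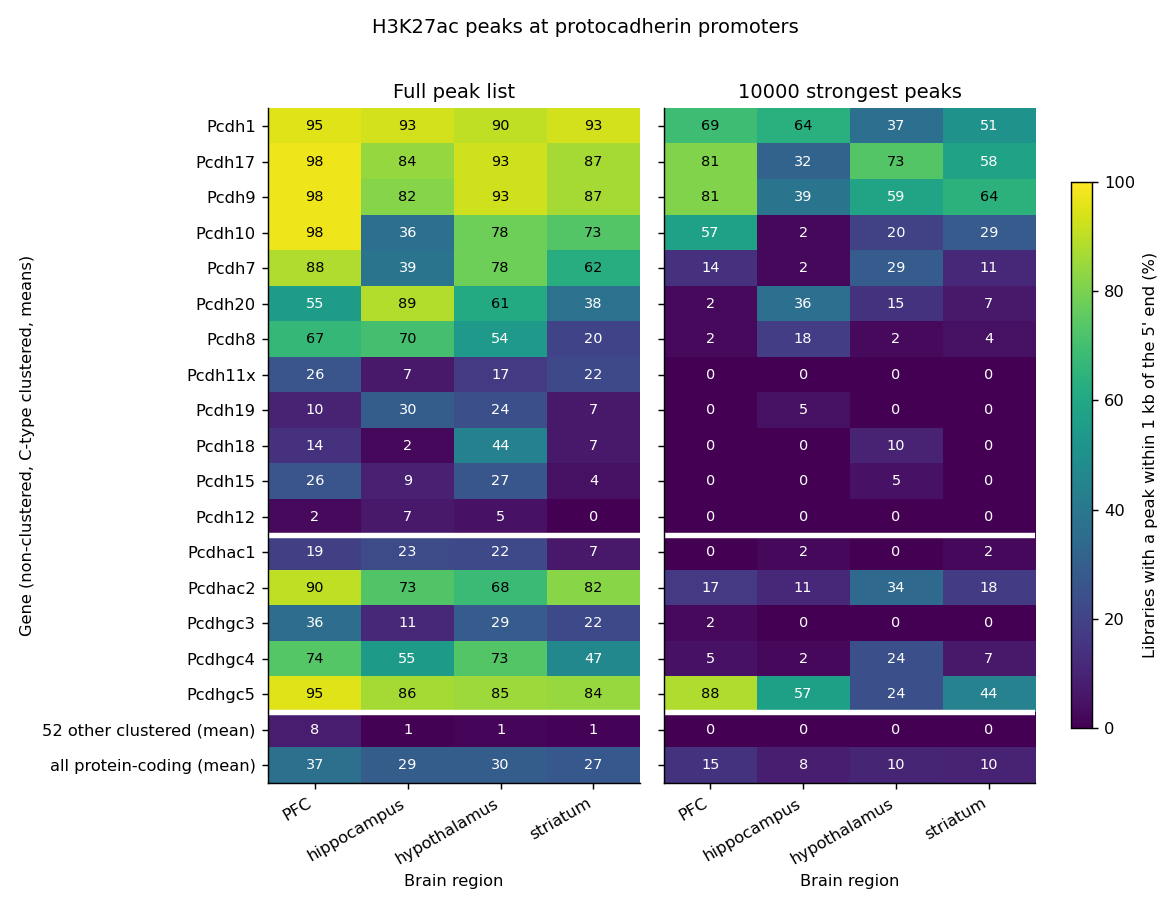
Share of libraries (%, colour and printed value) with an H3K27ac peak within 1 kb of the gene's 5′ end, by brain region, in the full peak list (left) and among the 10000 strongest peaks of each library (right). The rows are the 12 non-clustered genes, the 5 C-type clustered genes, the mean of the 52 other clustered genes and the mean of all protein-coding genes. Pcdh10 goes from 57.1% in PFC to 2.27% in hippocampus on the right, and Pcdh20 goes the other way.

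Along the clustered locus on chromosome 18, peaks gathered at the 3′ ends of the alpha and gamma clusters and were few in the beta cluster. The 257.5 kb of the alpha genes held a median of 10 peaks a library in PFC, 6 in hippocampus and 7 in both hypothalamus and striatum. The gamma genes held 16.5, 12, 12 and 9. The beta genes, over 259.5 kb, held a median of 0 in all 4 brain regions, with a peak of the full list in 19 of 42 PFC libraries (up to 6 in a library), 3 of 44 hippocampal, 6 of 41 hypothalamic and 7 of 45 striatal libraries. Among the 10000 strongest peaks they held a peak in 1 hippocampal library and in no library of the other brain regions. The 77.3 kb between the alpha and the beta genes held at least 1 of the 10000 strongest peaks in 39 of 42 PFC, 27 of 44 hippocampal, 33 of 41 hypothalamic and 32 of 45 striatal libraries, and at most 2 in a library.

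**Figure D2:**
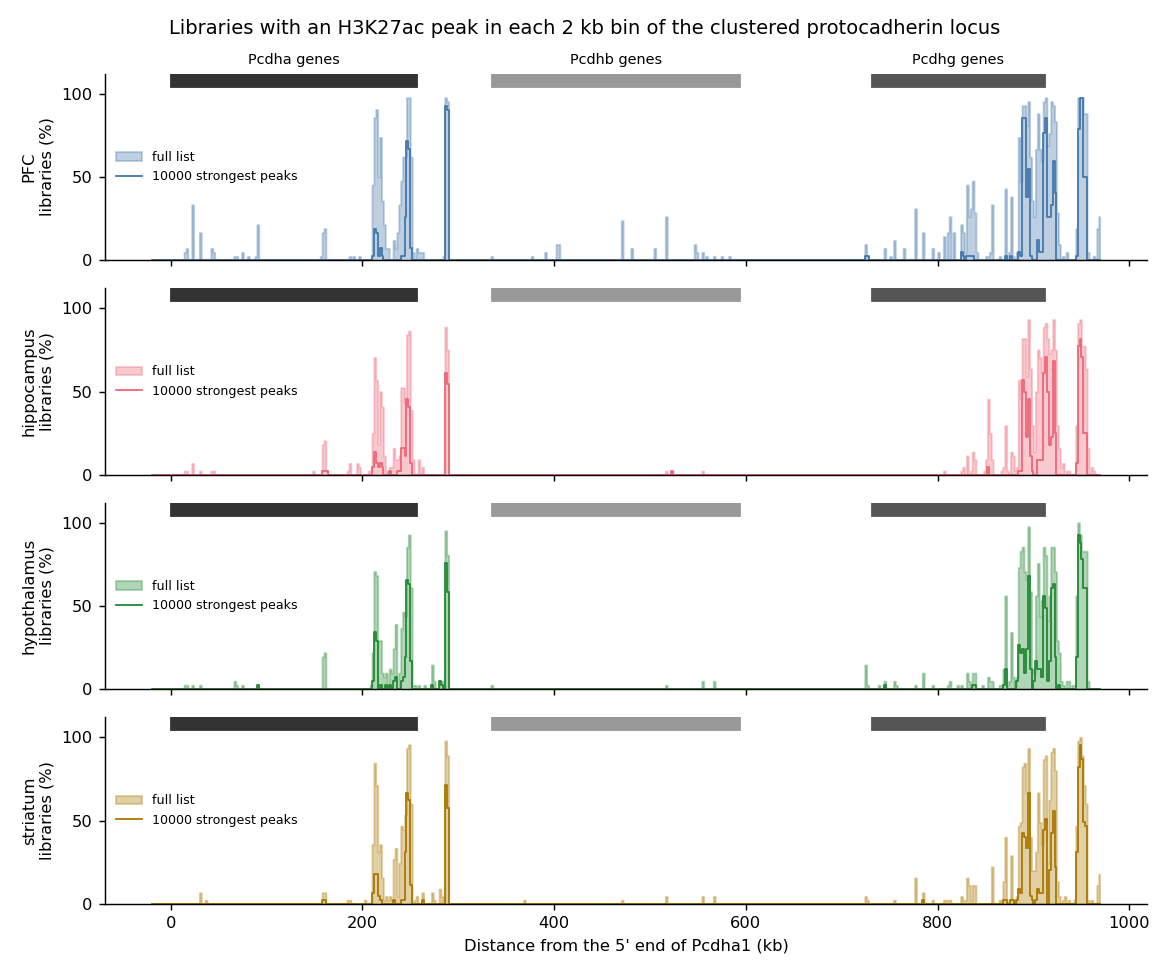
Share of libraries (%) with an H3K27ac peak in each 2 kb bin, against the distance in kb from the 5′ end of Pcdha1, in the 4 brain regions. Shading gives the full lists and the line the 10000 strongest peaks, and the grey bars mark the alpha, beta and gamma genes. In PFC the bin at 287 kb, between alpha and beta, had a strong peak in 92.9% of libraries, and the line stays at or near 0 over the beta genes.

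The consensus lists had the same layout. The regions of the clusters numbered 1 alpha, 1 beta and 5 gamma in PFC, 2, 1 and 3 in hippocampus, 2, 1 and 3 in hypothalamus, and 7, 1 and 11 in striatum. The beta entry was in each list an element between the clusters (chr18:37216181-37218403 over the 4 lists), which was assigned to Pcdhb1 as the nearest protein-coding gene at a distance of 46.5 to 46.6 kb and lies inside the predicted gene models Gm42416, Gm37013 and Gm37388. It had a peak in 41 of 42 PFC, 39 of 44 hippocampal, 39 of 41 hypothalamic and 44 of 45 striatal full lists. No consensus region lay in a beta gene. Each library's regions were ranked by their highest −log10 p as a percentile of the brain region's list, where 100 is the strongest. The element had a median rank of 96.7 in PFC, 78.4 in hippocampus, 84.5 in hypothalamus and 94.2 in striatum, against 48.6, 45.3, 47.3 and 37.7 over all regions. The alpha regions lay over the Pcdhac2 promoter and along the body of that gene, which holds the constant exons. The region in an intron 31.1 to 32.1 kb from the Pcdhac2 5′ end was in all 4 lists, with a median rank of 72.0 in PFC, 68.8 in hippocampus, 78.8 in hypothalamus and 91.7 in striatum. The gamma regions were assigned to Pcdhgc3, Pcdhgc4 and Pcdhgc5 and ran through the shared 3′ exons into the adjoining gene Diaph1, apart from 1 striatal region near Pcdhga12. The region over the Pcdhgc5 promoter ranked at a median of 86.1, 81.0, 88.9 and 93.1.

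Non-clustered genes held most regions: 28 in PFC, 27 in hippocampus, 30 in hypothalamus and 122 in striatum, and Pcdh12 had none. Pcdh9, whose gene spans 877.3 kb of chromosome 14, had 11, 11, 10 and 50 of them, and Pcdh1 had 6, 7, 11 and 14. The full lists held a median of 53 peaks in the Pcdh9 gene in hippocampus, against 35 in PFC, 34 in hypothalamus and 31 in striatum, although the share of libraries with a strong Pcdh9 promoter peak was lowest in hippocampus. Pcdh10 held a median of 10 peaks in PFC, 6 in striatum, 4 in hypothalamus and 1 in hippocampus, and Pcdh20 held 4 in hippocampus and 1 elsewhere. The strongest Pcdh1 region lay 63.4 to 66.7 kb from its 5′ end, outside the gene, with a median rank of 94.4 in hippocampus and 96.3 in striatum. Regions that overlapped were merged into 127 sites, of which 17 were in all 4 lists and 84 in 1 list only. Of the 115 non-clustered sites 76 were in the striatum list alone, which is also the longest list. Over all protocadherin regions the median rank was 48.2 in PFC, 53.3 in hippocampus, 58.1 in hypothalamus and 36.1 in striatum, beside the values of all regions above.

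Promoter ranks were next compared between brain regions, over all 21951 genes, with treatment and sex in the model and the animal as a block, since animals gave libraries of several brain regions. Comparisons with PFC also compare the 2 library kits, and they rest on the libraries in which Drd1 and Rgs9 were marked more often than in striatum. In this fit a promoter without a peak takes the middle rank of all unmarked promoters, which averaged 31.6 in PFC and 35.2 to 36.3 in the other brain regions because PFC libraries marked more genes. Promoters that were never marked therefore differ from PFC by the same small amount. Pcdha1, with no peak in any library, gave +3.49 ± 1.14 (SE) rank points for hippocampus over PFC with an adjusted p of 0.00519 (limma). A call was therefore taken as a difference only where it also held, in the same direction, with unmarked promoters set to rank 0, a setting added after the data had been seen. By the first rule 35 protocadherins were called for hippocampus against PFC, beside 61.3% of all genes, 36 for hypothalamus against PFC beside 65.2%, and 36 for striatum against PFC beside 62.0%. For hypothalamus against hippocampus 6 were called beside 13.0%, for striatum against hippocampus 5 beside 9.27%, and for striatum against hypothalamus 2 beside 8.00%. By both rules the counts were 11 of 69 beside 19.2% of all genes, 8 beside 20.4%, 4 beside 14.0%, 4 beside 10.3%, 3 beside 7.73% and 2 beside 6.35%, in the same order. None of these shares of the 69 genes exceeded that of all genes, but the 2 kinds of gene differed. The 57 clustered genes gave 6, 6, 2, 0, 0 and 1 of these calls, in the same order. The 12 non-clustered genes gave 5, 2, 2, 4, 3 and 1. As a share of the 12 this was above that of all genes in every comparison except hypothalamus against PFC, which was not tested.

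Pcdh10 gave the largest difference among the protocadherins called by both rules. Its promoter ranked at 47.9 to 99.7 with a median of 86.7 in PFC, and at 28.8 to 93.6 with a median of 43.2 in hippocampus. In hypothalamus the range was 31.4 to 98.9 with a median of 78.5, and in striatum 34.9 to 97.3 with a median of 84.5. The ranges overlapped between all brain regions, since libraries without a peak occurred in each, but 43 of 44 hippocampal libraries lay below the PFC mean. Hippocampus was lower than PFC by 34.7 rank points (−34.7 ± 3.99, adjusted p = 1.56e-13), and hypothalamus (−12.2 ± 4.06, adjusted p = 0.0065) and striatum (−10.5 ± 3.96, adjusted p = 0.0167) were also below PFC. Hypothalamus (+22.5 ± 4.01) and striatum (+24.2 ± 3.94) both exceeded hippocampus. Pcdh7 was likewise low in hippocampus, with a median rank of 42.2 against 73.7 in PFC and 79.6 in hypothalamus. It differed by −19.2 ± 4.39 from PFC (adjusted p = 0.000256), and hypothalamus exceeded hippocampus by 21.96 ± 4.42. In lists cut to equal length Pcdh10 kept its differences from PFC (−23.9 in hippocampus, adjusted p = 1.22e-07), whereas the excess over hippocampus was no longer called in hypothalamus (adjusted p = 0.126) or striatum (adjusted p = 0.0764). The Pcdh7 difference between hippocampus and PFC was −2.91 in such lists (adjusted p = 0.47), and that between hypothalamus and hippocampus was 12.5 (adjusted p = 0.012).

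Pcdh20 and Pcdh8 had the reverse order. The Pcdh20 promoter ranked at a median of 89.9 in hippocampus (31.6 to 98.7), 66.7 in hypothalamus (23.8 to 99.7), 55.2 in PFC (26.5 to 92.0) and 40.9 in striatum (26.8 to 97.4). Hippocampus exceeded PFC by 29.8 ± 4.56 (adjusted p = 2.68e-08), while hypothalamus (−19.8 ± 4.58) and striatum (−29.1 ± 4.50) were below hippocampus. Hypothalamus and striatum were not called against PFC by both rules. Pcdh8 ranked at a median of 78.5 in hippocampus and 38.7 in striatum, a difference of −24.7 ± 4.22 (adjusted p = 1.06e-06), and striatum was also below PFC by 11.2 ± 4.24 points (−11.2, adjusted p = 0.0168). In lists of equal length the latter turned to +3.58 (adjusted p = 0.226) and the former was −7.21 (adjusted p = 0.145), while the 3 Pcdh20 differences were +19.4, −11.6 and −14.5 (adjusted p = 5.3e-07, 0.012 and 0.00522). The Pcdh8 difference between hippocampus and PFC (+13.5 ± 4.27) held by the first rule only, with an adjusted p of 0.255 at rank 0.

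Pcdh18, a receptor known to bind the adaptor Dab1, was marked most often in hypothalamus. Its promoter had a peak in 43.9% of hypothalamic libraries and in 2.27% to 14.3% elsewhere, and the median rank was 43.6 against 33.1 in PFC, 34.4 in hippocampus and 37.4 in striatum. Hypothalamus exceeded PFC by 19.4 ± 3.12 (adjusted p = 8.88e-08) and hippocampus by 19.6 ± 3.08 (adjusted p = 8.44e-08), and striatum was below hypothalamus (−16.5 ± 3.08, adjusted p = 2.06e-05). In lists of equal length the excess was smaller, at 6.68 over PFC (adjusted p = 6.36e-05) and 3.74 over hippocampus (adjusted p = 0.0327), in a fit where Pcdha4, not marked in those lists, was also called against PFC (+2.14). The difference between striatum and hypothalamus was not called there (−3.91, adjusted p = 0.202). Pcdh19 was higher in hippocampus than in PFC by 12.9 ± 3.31 and Pcdh9 lower by −9.17 ± 3.43. In lists of equal length the Pcdh19 difference was 5.66, and with any annotated transcript start in place of the 5′ end the Pcdh9 difference was −1.71 and no longer called (adjusted p = 0.595). Among clustered genes, striatum was below hypothalamus at Pcdhgc4 (−16.3 ± 4.44, adjusted p = 0.00693). The other clustered calls by both rules were against PFC and all lower than PFC, with 6 of 57 in hippocampus, 6 in hypothalamus and 2 in striatum. These stood beside 19.2%, 20.4% and 14.0% of all genes. Most such calls over all genes were also lower, with 1015 of 4218, 1210 of 4483 and 176 of 3063 higher than PFC, in the same order. The clustered calls included Pcdhga12 (−8.73 ± 2.33 in hippocampus, −10.9 ± 2.37 in hypothalamus), Pcdhga6 (−8.56 ± 2.60 in hippocampus) and Pcdha4 (−7.79 ± 2.24 in hypothalamus). In lists of equal length these 4 differences changed sign, to +1.92, +0.98, +3.12 and +2.14, and Pcdhgc4 was not called (adjusted p = 0.159).

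**Figure D3:**
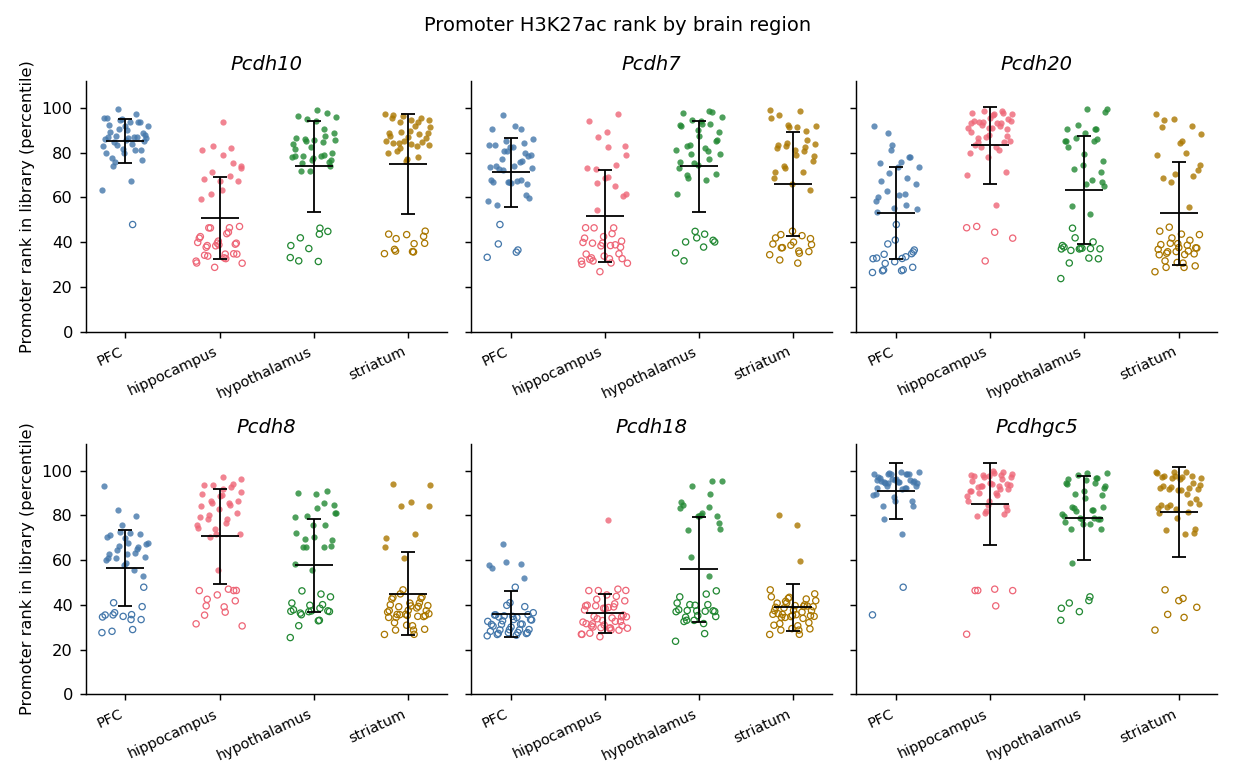
Percentile rank of 6 promoters in every library (points) by brain region, with mean and SD. Open points are libraries with no peak at that promoter, which share a middle rank. Pcdh10 and Pcdh7 are low in hippocampus, Pcdh20 and Pcdh8 high there, Pcdh18 is marked mainly in hypothalamus and Pcdhgc5 is high in all 4 brain regions.

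Treatment was compared within each brain region over all consensus regions, with sex in the model (limma on percentile ranks), in 5 comparisons: morphine against saline at baseline, morphine against saline under LPS, LPS against saline in either perinatal group, and the interaction. Across the 20 comparisons, 1225 protocadherin tests gave 11 calls at an adjusted p under 0.05, of which 9 were higher and 2 lower, at 9 regions. This was 0.898% of the tests, beside 0.551% of all tests in the same comparisons. All were in hypothalamus or striatum, and 10 of the 11 calls were at non-clustered genes or beside them, as were 207 of the 245 regions tested. In lists cut to equal length 2 of the 11 calls held, and only those are described below as a rise or fall.

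In PFC none of the 35 protocadherin regions was called in any comparison, and 0% of all regions was. In hippocampus none of 33 was called, beside 0.00617% of all regions for MOR-SAL against SAL-SAL and for the interaction and 0% otherwise. The hippocampal regions of smallest p were near Pcdh1 (−26.1 ± 10.3 for LPS after saline, adjusted p = 0.375) and Pcdh8 (+23.5 ± 10.3 for MOR-LPS against SAL-LPS, adjusted p = 0.61). At an unadjusted p under 0.05, 0 to 5 of the 35 PFC and 1 to 3 of the 33 hippocampal regions passed in each comparison, beside 2.96% to 11.3% of all regions in PFC and 5.64% to 9.59% in hippocampus. The region of smallest p in PFC was a Pcdh9 intron region 57.6 kb from the 5′ end (chr14:93823820-93833109), which ranked at 5.53 to 93.6 with a median of 26.6 in MOR-LPS and at 0.11 to 14.9 with a median of 6.52 in SAL-LPS. The groups overlapped, and 12 of 14 MOR-LPS and 5 of 11 SAL-LPS libraries had a peak. It differed by 38.3 ± 8.29 points with 13 of 14 MOR-LPS libraries above the SAL-LPS mean, at an adjusted p of 0.0716. That p fell below 0.05 with ranks by fold enrichment, with marker shares or the way the files name their peaks as terms, and without the library whose peaks carry another animal's identifier. Calls over all regions in those settings are not given here. In lists of equal length 0 of the 35 protocadherin regions and 0 of all 18272 regions were called in this comparison.

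In hypothalamus, Pcdh9 was called in 3 comparisons at the intron region whose sequence is printed above (chr14:93811884-93815310, 75.4 kb from the 5′ end). It ranked at 32.1 to 77.5 with a median of 63.2 in MOR-LPS (n = 10), at 5.14 to 52.8 with a median of 16.0 in SAL-LPS (n = 11), at 5.55 to 45.8 with a median of 16.5 in MOR-SAL (n = 12) and at 14.6 to 88.7 with a median of 47.6 in SAL-SAL (n = 8). All 10 MOR-LPS libraries had a peak there, against 2 of 11 SAL-LPS, 3 of 12 MOR-SAL and 7 of 8 SAL-SAL libraries, so the ranges overlapped and the group with neither morphine nor LPS stood with MOR-LPS. MOR-LPS ranked above SAL-LPS by 41.1 ± 9.80 (adjusted p = 0.00729), where 1 of 36 protocadherin regions was called beside 4.31% of all regions, and in lists of equal length the difference was 28.1 ± 8.83 (adjusted p = 0.0653). The region rose in MOR-LPS against MOR-SAL by 40.7 ± 9.79 (adjusted p = 0.0066), and by 29.9 ± 8.83 in lists of equal length (adjusted p = 0.0434). LPS after perinatal saline gave −36.7 ± 10.5 (adjusted p = 0.0926), where no protocadherin region was called beside 0.305% of all regions. Morphine at baseline gave −36.3 ± 10.7 (adjusted p = 0.236), with no region called and 0% of all regions. The interaction was +77.4 ± 14.6 (adjusted p = 0.00187), where 2 of 36 were called beside 1.86% of all regions. These comparisons share libraries and are not independent of each other. Leaving out any of the libraries kept the 3 calls. At the overlapping regions MOR-LPS exceeded SAL-LPS by 2.54 ± 10.5 in hippocampus (adjusted p = 0.972) and 8.63 ± 6.56 in striatum (adjusted p = 0.461), and the difference between brain regions was not tested.

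The Pcdh18 promoter region (chr3:49751043-49757644) fell in hypothalamus. It ranked at 3.32 to 64.3 with a median of 37.9 in MOR-LPS and at 32.4 to 92.97 with a median of 79.6 in MOR-SAL, so the groups overlapped, but all 10 MOR-LPS libraries were below the MOR-SAL mean. The difference was −39.5 ± 10.8 (adjusted p = 0.02) and −38.7 ± 11.3 in lists of equal length (adjusted p = 0.0426), where 3 of 36 protocadherin regions were called beside 3.84% of all regions. Against SAL-LPS, with a median of 73.7, it was −32.7 ± 10.8 (adjusted p = 0.0547). The third region was a Pcdh9 intron region 288.8 kb from the 5′ end (chr14:93599336-93601900), with a median of 65.9 in MOR-LPS and 21.6 in MOR-SAL and a difference of 32.9 ± 10.1 (adjusted p = 0.0413). It was called in 11 of 22 fits that left out a library, and the Pcdh18 call in 20 of 22. The element between the alpha and beta clusters had a negative interaction of −40.7 ± 11.9 (adjusted p = 0.0456), with a median rank of 63.6 in SAL-SAL, 94.6 in MOR-SAL, 94.6 in SAL-LPS and 75.3 in MOR-LPS, and was called in 15 of 41 such fits. Without the MOR-LPS library of animal 14-4 the adjusted p was 0.071 at Pcdh18, 0.146 at the more distant Pcdh9 region and 0.115 at the element. Calls over all regions then fell too, from 529 to 142 for MOR-LPS against MOR-SAL and from 257 to 45 for the interaction. Without the MOR-LPS library of animal 14-0 they fell to 201 and 31.

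Peak lists differed in length between these groups, with a mean of 76526 peaks in hypothalamus MOR-LPS, 49653 in SAL-LPS, 52875 in MOR-SAL and 52154 in SAL-SAL. With the logarithm of the number of peaks as a term, the Pcdh9 region gave 45.7 ± 10.3 for MOR-LPS against SAL-LPS (adjusted p = 0.00296). Of 9 astrocyte markers, a mean of 6.67% was marked in MOR-LPS, 11.1% in MOR-SAL and 6.06% in SAL-LPS (0% to 22.2% per library in each), and of 10 oligodendrocyte markers 6.0%, 4.17% and 4.55% (0% to 20%). In SAL-SAL these means were 5.56% (0% to 11.1% per library) and 10.0% (0% to 50%). SAL-SAL thus had the highest oligodendrocyte mean and the widest oligodendrocyte range of the hypothalamic groups. Neuron markers were marked at 28.0% in MOR-LPS, 45.8% in MOR-SAL, 32.7% in SAL-LPS and 33.8% in SAL-SAL. With marker shares as terms the 3 calls at the first Pcdh9 region stayed (adjusted p = 0.00838, 0.0457 and 0.00818 for MOR-LPS against SAL-LPS, against MOR-SAL and the interaction). Those at Pcdh18 (−33.6 ± 11.3, adjusted p = 0.109), at the other Pcdh9 region (adjusted p = 0.0838) and at the element (adjusted p = 0.138) did not, and the part of these other cell types in the results was not tested further.

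In striatum, 5 of 141 protocadherin regions ranked higher in MOR-LPS than in SAL-LPS and none lower, beside 2.32% of all regions called. Over all 141 the median difference was +1.93, beside −1.47 over all regions, and 34 of the 141 had an unadjusted p under 0.05, 28 of them higher, beside 20.4% of all regions. The 5 were an intron region of Pcdh15 (chr10:73573302-73576101), 3 intron regions of Pcdh9 358.1 to 413.1 kb from its 5′ end, and a region 56.8 kb from Pcdh1 (chr18:38152769-38155236). The Pcdh15 region ranked at 13.3 to 98.4 with a median of 42.2 in MOR-LPS and at 18.0 to 75.4 with a median of 29.99 in SAL-LPS, a difference of 30.3 ± 7.98 (adjusted p = 0.0343). The Pcdh9 region at chr14:93471607-93477559 ranked at 23.9 to 97.7 with a median of 60.2 in MOR-LPS and at 18.0 to 90.7 with a median of 29.99 in SAL-LPS, a difference of 32.1 ± 8.48 (adjusted p = 0.0343). The other 2 Pcdh9 regions, at chr14:93492738-93497844 and chr14:93530182-93532591, had a peak in 6 and 5 of 15 MOR-LPS libraries and in none of 13 SAL-LPS libraries, with differences of 24.5 ± 6.78 and 22.2 ± 6.41 (adjusted p = 0.0363 and 0.0429). The region by Pcdh1 had a peak in 8 of 15 and 2 of 13, with 25.1 ± 7.23 (adjusted p = 0.0418). At all 5 the groups overlapped, and the MOR-LPS libraries divided into some with a strong peak and some with none.

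Oligodendrocyte markers moved with the same groups. In striatum MOR-LPS a mean of 27.3% of the 10 oligodendrocyte marker promoters was marked, from 0% to 90.0% per library, against 6.15% in SAL-LPS (0% to 30%), 5.71% in MOR-SAL (0% to 10.0%) and 10.0% in SAL-SAL (0% to 90.0%), although the nuclei had been sorted on NeuN. With the marker shares as terms the differences were 15.6 ± 7.62 at Pcdh15, 22.02 ± 8.76, 14.3 ± 6.58 and 8.56 ± 6.02 at the 3 Pcdh9 regions and 12.7 ± 7.08 by Pcdh1, and none was called (adjusted p = 0.825 to 0.906). None was called in lists of equal length (adjusted p = 0.0787 to 0.72). Without the MOR-LPS library of animal 15-3 all 5 calls were lost, with adjusted p from 0.0834 to 0.114. In that fit 0 of all 60013 regions were called, against 1395 with every library. Leaving out other single libraries, such as SAL-LPS of animal 10-0 or MOR-LPS of animal 16-0, also left 0 calls over all regions. In the other striatal comparisons no protocadherin region was called, beside 0.00667% of all regions for morphine at baseline, 0% for LPS after saline, 0.253% for LPS after morphine and 0.0167% for the interaction. Of these, the smallest adjusted p was that of a Pcdh7 intron region 149.6 kb from the 5′ end for LPS after morphine (31.4 ± 9.49, adjusted p = 0.087). The alpha, beta and gamma regions gave no call in striatum, and the smallest p of the baseline comparison was in a Pcdhac2 exon (24.0 ± 8.42, adjusted p = 0.649).

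**Figure D4:**
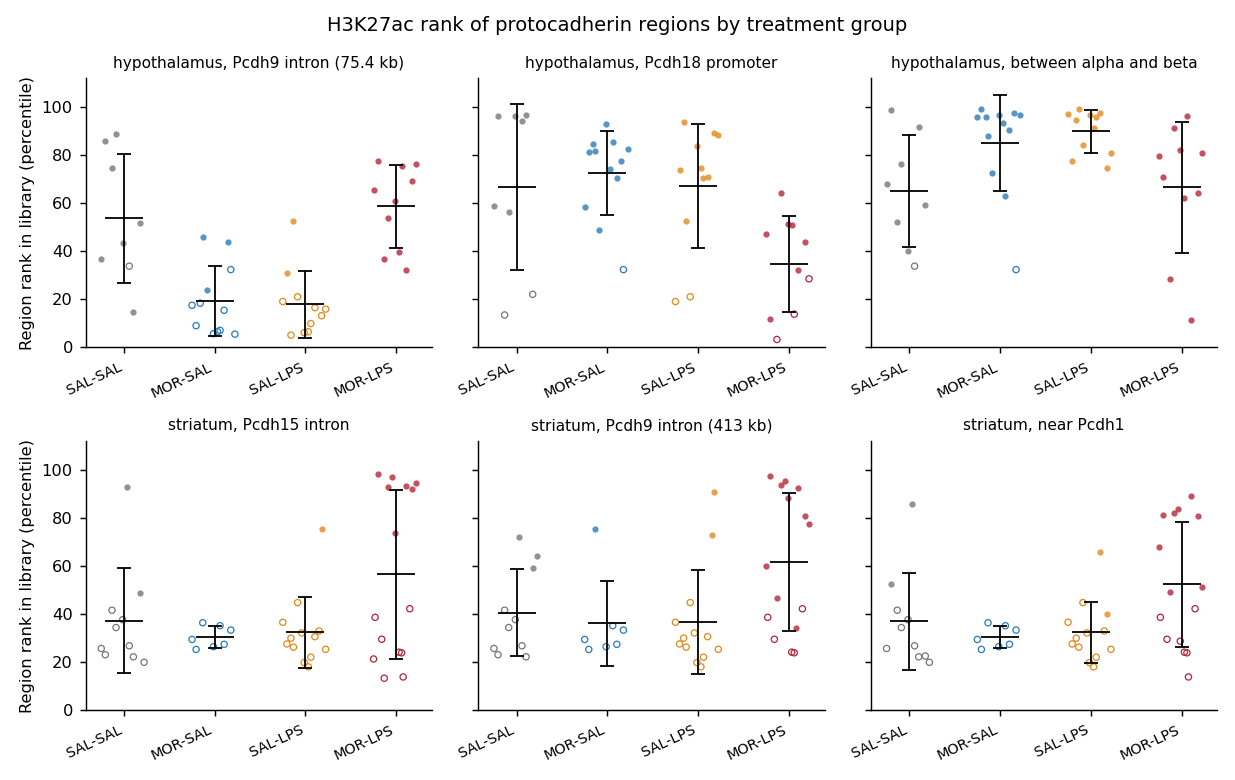
Percentile rank of 6 protocadherin regions in every library (points) by treatment group, with mean and SD, for 3 regions of hypothalamus (top) and 3 of striatum (bottom). Open points are libraries with no peak in the region, and distances in brackets are from the 5′ end of Pcdh9. In hypothalamus the Pcdh9 intron region ranks at a mean of 58.7 in MOR-LPS and 17.9 in SAL-LPS. In striatum the MOR-LPS libraries spread from the lowest to the highest ranks.

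No test was run on the number of marked promoters by treatment. Clustered promoters among the 10000 strongest peaks averaged 0.38 ± 0.52 in hypothalamus SAL-SAL, 1.17 ± 0.83 in MOR-SAL, 1.09 ± 1.14 in SAL-LPS and 0.70 ± 0.82 in MOR-LPS, and non-clustered promoters 1.63 ± 1.19, 2.92 ± 1.08, 2.36 ± 0.81 and 2.80 ± 1.14, so SAL-SAL had the lowest mean of both, beside 8.67%, 11.0%, 9.70% and 11.7% of all genes. In striatum clustered promoters averaged 0.90 ± 0.99, 0.43 ± 0.53, 1.00 ± 0.71 and 0.53 ± 0.64 and non-clustered promoters 2.70 ± 1.25, 1.71 ± 0.76, 2.46 ± 1.39 and 2.00 ± 1.20 in the same order, with both morphine groups below both saline groups, beside 9.82%, 8.74%, 8.38% and 11.5% of all genes. In PFC the means of the 4 groups ran from 1.09 to 1.25 for clustered and 2.86 to 3.50 for non-clustered promoters, and in hippocampus from 0.50 to 1.18 and 1.58 to 2.27.

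Genes known to act with the protocadherins were followed as lists. Of 15 regulators of clustered promoter choice, which include Ctcf, the cohesin subunits and the DNA methyltransferases, a mean of 10.6% were marked among the 10000 strongest peaks in PFC and 2.88% to 4.23% elsewhere. Of 14 effectors and partners, such as the kinases and the WAVE complex that bind protocadherin tails, a mean of 20.4% to 39.3% were marked, and of 23 other cadherins 11.0% to 20.9%. By treatment, 1 of 420 regulator tests was called, at Dnmt3a in striatum for MOR-LPS against MOR-SAL (+35.7 ± 8.30, adjusted p = 0.0259), and it was lost in lists of equal length (adjusted p = 0.343). In that comparison 1 of 40 regulator regions was called, beside 0.253% of all regions. Of 910 effector tests 8 were called, all higher, in hypothalamus and at Nckap1, Cyfip1 (both WAVE complex subunits) and Ctnnd1 (p120 catenin). Of 21 effector regions, 3 were called for MOR-LPS against SAL-LPS beside 4.31% of all regions, 3 against MOR-SAL beside 3.84% and 2 for the interaction beside 1.86%. They ran from +28.5 ± 8.64 to +60.5 ± 16.8, and the Cyfip1 regions kept 2 calls in lists of equal length (adjusted p = 0.047 and 0.0417). Of 1015 cadherin tests 8 were higher and 1 lower, at Cdh20, Cdh10 and Fat1 in striatum for MOR-LPS against SAL-LPS (+21.8 ± 6.57 to +31.9 ± 8.53), where 6 of 119 regions were called beside 2.32% of all regions, and at Cdh20 (+32.0 ± 9.41), Cdh7 (−43.0 ± 10.7) and Cdh10 in hypothalamus, with 2 of 34 regions for MOR-LPS against SAL-LPS and 1 of 34 for the interaction, and none held in lists of equal length.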

How the data were processed

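H3K27ac was profiled by MOWChIP-seq in sorted NeuN+ nuclei. The study's methods and the submitters' processing notes name Trim Galore 0.6.7 for trimming, Bowtie2 2.4.5 and the mm10 build for alignment and SAMtools 1.15.1. Peak calling was done by the authors on single libraries (MACS2 2.2.7.1) with a q-value cutoff of 0.05. The deposited peak lists give a score (−log10 q times 10, truncated), a fold enrichment over the local background (a ratio), and −log10 p and −log10 q values at each summit. The 4 deposited consensus lists, which the authors made with DiffBind 3.10.1, give positions only. Read counts were not analysed here, so sequencing depth is unknown, list length stands in for it, and differences are in percentile ranks rather than in signal.

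Each consensus region or promoter (1 kb either side of the gene's 5′ end) was given the −log10 p of its strongest peak, with an overlap of at least 1 bp, which was then ranked within the library from 0 to 100. Ranks were fitted with limma 3.58.1 in R 4.3.3, with group and sex as terms for treatment, and with brain region, treatment and sex as terms and the animal as a block for brain regions. P-values were adjusted by Benjamini-Hochberg over all features of a comparison, and features under 0.05 were called. The fits were tested on simulated shifts of 200 features. For MOR-LPS against SAL-LPS, 0% of regions shifted by 20 rank points were called in hypothalamus and in striatum. At 40 points 35.5% were called in hypothalamus and 67% in striatum. For promoters in hippocampus against PFC, 2.5% were called at 10 points and 76% at 20. A region that was not called may therefore still differ by 20 points. Other steps used Python 3.11.15 with pandas 2.3.3. The labels pair libraries by animal, and the number before the hyphen was read as the litter. Perinatal treatment was assigned by dam, so litter was nested in it and was not a term in the fits. Littermates were counted as separate samples, and the errors of the morphine comparisons take them as independent. The correlation within litters was 0.0336 in PFC, −0.00459 in hippocampus, −0.0159 in hypothalamus and −0.00143 in striatum, and that within animals 0.0143.

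A list under 10000 peaks was left out. The list of striatum markers holds a gene that is not reported here. The peaks of the PFC MOR-LPS library of animal 12-2 carry the identifier of another animal. The genes, lists and tests were chosen with earlier results of these data known. Text names every non-clustered gene, the C-type genes and the 3 other genes of each cluster most often marked, regions called or of smallest p in a comparison, regions of highest rank, and members of the related lists that were called. A few others were named after their values were seen, among them Pcdhga12, Pcdha4, Pcdhga6 and Pcdhb14 by their full-list shares. Alternatives covered list length, thresholds, overlap, promoter definition, filters, blocks and added terms.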

Additional observations from a re-analysis of the deposited data

Results flagged for a closer look

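Differences between groups under the same contrast were found at 2 protocadherin regions, both in hypothalamus, where the effect of adult LPS differed with the perinatal treatment (limma interaction term). At the Pcdh9 intron region 75.4 kb from the 5′ end the interaction was 77.4 rank points (adjusted p = 0.00187), with LPS giving −36.7 after perinatal saline and +40.7 after perinatal morphine. In lists of equal length it was 53.0 (adjusted p = 0.0543). At the element between the alpha and beta clusters the interaction was −40.65 (adjusted p = 0.0456) and −47.2 in lists of equal length (adjusted p = 0.0597). A check for single libraries far from the rest of their group covered 6 groups and found 0. The other groups of the series were not covered, so it says nothing about their libraries.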

How the results depend on the processing

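Of 1228 values recomputed for 119 results, 1068 kept their direction and their side of the threshold, or stayed within the limits set for counts and means, 160 did not, and 13 of those changed direction. The cause was not tested. Alternatives chosen after seeing the data were rank 0 for features without a peak, marker shares as terms, the way the files name their peaks as a term, and leaving out the PFC libraries of animals 12-2 and 13-1.

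The 11 treatment calls became 2 in lists of equal length, 7 with peaks of −log10 q of at least 3 and 4 with marker shares. Of those 4, 3 were at the first hypothalamic Pcdh9 region and 1 was in PFC and not among the 11. Calls over all regions also fell in lists of equal length. For MOR-LPS against SAL-LPS they went from 1395 to 2 in striatum and from 594 to 175 in hypothalamus. In hypothalamus those of MOR-LPS against MOR-SAL went from 529 to 241 and those of the interaction from 257 to 7. For MOR-LPS against SAL-LPS in PFC, 0 calls became 1 when ranked by fold enrichment, with the naming of peaks as a term, with marker shares and without the library of animal 12-2. The count stayed 0 in lists of equal length, as did that over all regions. In hypothalamus the 1 call of that comparison became 0 in lists of equal length, 2 by fold enrichment, 2 with the number of peaks as a term and 3 with litter as a replicate block, and the block moved no other count of treatment calls by over 1.5 times. The 3 calls of MOR-LPS against MOR-SAL became 1 with marker shares, and the 2 interactions became 0 in lists of equal length and 1 with stricter peaks, with rank 0 and with marker shares. The 5 calls in striatum became 0 in lists of equal length, 3 with stricter peaks, 3 with regions marked in 20% of libraries and 0 with marker shares. Leaving out 1 library at a time gave 1 to 6 calls for MOR-LPS against SAL-LPS, 1 to 3 for MOR-LPS against MOR-SAL and 1 to 3 for the interaction in hypothalamus, and 0 to 10 in striatum. Over all regions the same fits gave 205 to 1137, 142 to 1007, 31 to 761 and 0 to 3410 calls, in the same order.

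Between brain regions the 120 calls of the 6 comparisons became 241 in lists of equal length, where unmarked promoters again share a rank that differs between brain regions, 22 with promoters marked in 20% of libraries, 62 with rank 0 and 63 with marker shares. In these settings, in that order, the count was 63, 6, 19 and 12 for hippocampus against PFC and 61, 2, 16 and 9 for hypothalamus against PFC. For striatum against PFC it was 57, 2 and 15 in the first 3 of them. For hypothalamus against hippocampus it was 59 in lists of equal length and 27 with the number of peaks as a term, for striatum against hippocampus 1 in lists of equal length, and for striatum against hypothalamus 0 there and 4 with rank 0. Over all 21951 genes, rank 0 took the calls against PFC from 13445 to 4502 in hippocampus, 14311 to 4709 in hypothalamus and 13614 to 3532 in striatum. For striatum against hypothalamus they went from 1756 to 1546. Counts over all genes in the other settings are not given here, so these changes are not read as particular to protocadherins.

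Directions changed in lists of equal length for Pcdhga6 (3.12) and Pcdhga12 (1.92) in hippocampus against PFC, Pcdha4 (2.14) and Pcdhga12 (0.98) in hypothalamus against PFC, Pcdh8 (3.58) in striatum against PFC, Pcdhga7 (−0.9984) and Pcdhgc3 (−1.02) in hypothalamus against hippocampus, and Pcdhb19 (−0.61) and Pcdhga6 (−0.61) in striatum against hippocampus. With rank 0, Pcdha1 came to 0.00 in hippocampus and, with Pcdha2, to 0.00 in striatum against PFC, and Pcdh12 to −1.22 in striatum against PFC. Clustered promoters marked per library came to 2.15 in PFC with 20000 peaks, and with full lists to 7.26 in PFC, 2.80 in hippocampus, 3.46 in hypothalamus and 3.02 in striatum. Non-clustered promoters came to 4.29 in PFC, 3.30 in hippocampus and 3.90 in hypothalamus with 20000 peaks, and to 6.76, 5.48, 6.63 and 5.00 with full lists.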
